A study of Mus musculus with 4 samples.

Results

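Selp-negative sinusoidal endothelial cells at injury are the liver sinusoidal cells of the negative injury library in which no transcript of Selp, the gene of the adhesion molecule P-selectin, was counted. They numbered 2075 of the 5271 barcodes of that library that passed the cell filter, and the 3 libraries with count matrices held 11874 barcodes in all. A barcode passed with 1000 or more unique molecular identifiers (UMIs, each a counted transcript molecule), 300 or more genes, and mitochondrial UMIs making up no more than 20%. It counted as a sinusoidal endothelial cell with at least 30 UMIs per 10000 from Clec4g, Stab2, Dnase1l3, Gpr182, Kdr and Ptprb together. Cells were left out with 10 or more UMIs per 10000 from the mesothelial genes Msln, Upk3b, Nkain4 and Lrrn4, or with 30 or more from the bile duct genes Spp1, Tm4sf4 and Epcam. They were also left out with 15 or more per 10000 from the vascular genes Vwf, Ly6c1 and Adgrg6, or with 3 or more UMIs of the central vein genes Rspo3 and Wnt9b. The same gate gave 2032 of 2818 cells in the negative recovery library, to which the injury cells were compared, and 144 of 2126 cells in the positive recovery library. These gating genes chose the cells, so their values are given as a description.

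The study profiled non-parenchymal liver cells, the cells other than hepatocytes, by single-cell RNA sequencing in a mouse model of steatohepatitis, at injury and in recovery. All mice carried Col1a2-CreERT2, a tamoxifen-dependent Cre recombinase under the control of the collagen gene Col1a2, and a tdTomato reporter. The labels write the reporter allele as R28RtdTomato for the negative injury library, R29RtdTomato for negative recovery and R27RtdTomato for positive recovery. Positive and negative are the submitters' names for the fractions. Injury mice had been fed for 8 weeks on a high-fat diet (45%) that lacked choline and methionine, and drank water with 0.1% L-methionine. The sources used here give neither the length of recovery nor the number, age or sex of the animals behind each library. Each condition is 1 library, so differences between animals cannot be told apart from differences between injury and recovery, and no test between conditions was possible. Values are UMI counts scaled to a total of 1000000 (CPM), summed over the gated cells, with exact Poisson 95% intervals in parentheses. Intervals of shares are exact binomial, and both cover counting error only.

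Liver sinusoidal endothelial cells line the sinusoids with open pores and no continuous basement membrane, and clear waste molecules from blood through scavenger receptors. They are among the cells that sense blood-borne and hepatocyte-derived nucleic acids, and type I and type II interferons act on them through receptors that signal by JAK kinases. Type I interferon activates a transcription factor complex that holds IRF9 and binds the interferon-stimulated response element (ISRE), which controls antiviral genes such as Rsad2, the Ifit genes and Isg15. Type II interferon acts through gamma-activated sites (GAS), with Cxcl9 and the guanylate-binding proteins as well-known targets. NF-kB, activated by cytokines and microbial products, controls adhesion molecules and several chemokines.

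The 6 promoters below belong to members of the injury profile and are shown because each held the ISRE core in the 250 bases before the annotated start. Sequences are from RefSeq (GRCm38.p6), written 5′ to 3′ on the strand of the gene, with each match to the ISRE core or its reverse complement in capitals.
Rsad2, chr12:26456453-26456702, minus strand: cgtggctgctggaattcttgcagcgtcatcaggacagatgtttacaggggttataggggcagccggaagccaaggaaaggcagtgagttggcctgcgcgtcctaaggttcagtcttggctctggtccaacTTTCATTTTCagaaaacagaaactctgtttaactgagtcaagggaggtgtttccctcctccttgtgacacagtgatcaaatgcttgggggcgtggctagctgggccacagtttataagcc
Cxcl10, chr5:92348890-92349139, minus strand: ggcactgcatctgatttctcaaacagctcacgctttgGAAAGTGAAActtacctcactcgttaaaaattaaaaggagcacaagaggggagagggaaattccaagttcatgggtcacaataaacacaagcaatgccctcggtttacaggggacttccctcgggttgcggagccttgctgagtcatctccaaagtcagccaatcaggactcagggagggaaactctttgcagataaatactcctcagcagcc
Ifit1, chr19:34640639-34640888, plus strand: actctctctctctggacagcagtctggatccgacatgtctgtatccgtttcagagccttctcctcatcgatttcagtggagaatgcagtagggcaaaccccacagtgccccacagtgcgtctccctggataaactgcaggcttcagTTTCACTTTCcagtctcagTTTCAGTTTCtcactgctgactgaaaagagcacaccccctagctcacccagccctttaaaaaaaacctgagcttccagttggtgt
Ifit3, chr19:34583279-34583528, plus strand: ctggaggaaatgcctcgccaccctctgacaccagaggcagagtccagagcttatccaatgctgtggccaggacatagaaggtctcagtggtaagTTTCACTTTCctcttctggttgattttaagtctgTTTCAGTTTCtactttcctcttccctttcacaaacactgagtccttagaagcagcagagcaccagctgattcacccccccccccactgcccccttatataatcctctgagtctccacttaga
Isg15, chr4:156200819-156201068, minus strand: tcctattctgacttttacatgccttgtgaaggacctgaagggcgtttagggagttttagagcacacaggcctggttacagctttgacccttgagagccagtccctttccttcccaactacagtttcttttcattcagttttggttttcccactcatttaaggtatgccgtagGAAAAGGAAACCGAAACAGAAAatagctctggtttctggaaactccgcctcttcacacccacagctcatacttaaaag
Gbp5, chr3:142496684-142496933, plus strand: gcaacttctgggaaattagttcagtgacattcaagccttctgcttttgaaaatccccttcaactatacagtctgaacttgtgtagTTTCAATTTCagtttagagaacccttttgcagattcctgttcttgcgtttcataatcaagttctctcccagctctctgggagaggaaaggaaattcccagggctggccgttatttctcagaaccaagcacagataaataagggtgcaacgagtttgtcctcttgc
Counted back from the annotated start, the match began at base -120 in Rsad2, at -213 in Cxcl10 and at -165 in Gbp5. Ifit1 held matches at -104 and -85, and Ifit3 at -156 and -122. Isg15 held 3 matches that overlap one another, at -78, -72 and -66. Over all promoters of the table, 2.98% of 32851 held an ISRE core on either strand. By gene, 12 of 26 matched members of the antiviral list did (46.2%), as did 9 of 11 guanylate-binding and immunity-related GTPases (81.8%), against 3.46% of all 27025 genes. None of 13 sinusoidal transcription factors, 18 vascular receptors and junction genes or 13 NF-kB response genes held it. The GAS letters TTCNNNGAA stood in 6 of the 11 GTPase genes (54.5%) and in 8.13% of all genes. The kappa B motif of NF-kB, searched on both strands, stood in 5 of 14 chemokine and cytokine genes (35.7%), Cxcl10 among them, in 3 of 13 NF-kB response genes (23.1%) and in 1.36% of all genes. No ISRE core lay in these windows of Irf7, Cxcl9, Ifi44, Oasl2, Cd274, Icam1, Tnfaip3 and Ltbp4, or in either window of Ifit2. A match is a string of letters, and binding was not measured.

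The sinusoidal identity of the members was described with 15 markers. Of these, 14 were among the measured genes and all 14 were detected, 6 of them gating genes. The other 8 had levels of 114 (Aass) to 2049 CPM (Fcgr2b) at injury. These included the scavenger receptor Stab1 at 1004 (986 to 1022) CPM at injury, 1196 (1179.7 to 1213) CPM in negative recovery and 1138 (1081 to 1197) CPM in positive recovery, and the Fc receptor Fcgr2b at 2049 (2023 to 2075), 2497 (2473 to 2521) and 2540.0 (2454 to 2628) CPM in the same libraries. All 8 markers that the gate did not use were detected in all 3 libraries. Detection alone does not set these cells apart. All 12 hepatocyte, all 12 Kupffer cell and all 12 stellate markers were also detected in them at injury, with sums given below. Aass stood at 237 CPM in negative recovery (log2 ratio -0.99). The 14 sinusoidal markers summed to 21870 CPM at injury, 28886 CPM in negative recovery and 27579 CPM in positive recovery. Rsad2, Cxcl10, Cxcl9 and Irf7 were named with these cells when their profile was already known, so the levels of these genes are a description too. At the edge of the gate, 28 injury cells had a sinusoidal sum of 30 to under 40 UMIs per 10000, with 636 CPM of Clec4g, 403 CPM of Stab2 and 1388 CPM of Rsad2. The 19 cells just outside, at 20 to under 30, had 367, 205 and 1232 CPM of these genes, and the median sum over all members was 125.

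The Selp step left out 1128 gated cells at injury and 29 in negative recovery. The Selp-negative share of the gated sinusoidal cells was 64.8% (63.1% to 66.4%) at injury, 98.6% (98.0% to 99.1%) in negative recovery and 99.3% (96.2% to 100%) in positive recovery. Gated cells had a median of 5947 UMIs at injury, 8345 in negative recovery and 8889 in positive recovery. With each cell thinned to 1000 UMIs the share was 85.9% (84.6% to 87.0%) at injury and 99.7% (99.3% to 99.9%) in negative recovery. A cell without a Selp UMI is not shown to lack Selp: of the 1128 positive cells, 399 had 1 UMI, 212 had 2 and 517 had 3 or more, up to 59. Free RNA can give UMIs to cells of any type. A Selp UMI was held by 2.41% of bile duct cells and 10.7% of mesothelial cells of the injury library, at median depths of 15025.5 and 20165 UMIs. Selp stood at 3.57 and 9.60 CPM in these classes, and the source of these UMIs was not tested.

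The members held 11566507 UMIs at injury, 16823474 in negative recovery and 1303141 in positive recovery, with medians of 5442, 8335 and 8891 UMIs per cell. Median mitochondrial shares were 5.2% at injury and 5.32% in negative recovery. The injury and negative recovery libraries shared 3 barcodes, the injury and positive recovery libraries 8, and both recovery libraries 5. Immediate-early genes, which respond to tissue digestion, differed between the libraries too. Of 17 dissociation genes 4 were 2-fold or more higher at injury, and the median log2 ratio of injury over negative recovery was 0.47. Atf3 stood at 458 CPM at injury and 126 CPM in negative recovery, and Egr1 at 2258 and 775 CPM. The 8 general leukocyte markers summed to 125 CPM at injury, 156 CPM in negative recovery and 220.2 CPM in positive recovery, of which Fcer1g made up 116, 146 and 141 CPM, and the defining marker Ptprc stood at 0.173, 0.416 and 3.84 CPM. The 7 plasmacytoid dendritic markers summed to 3101, 1893 and 1900.0 CPM, with Bst2 at 1719, 844 and 814 CPM and Tcf4 at 947, 901 and 915 CPM, and the defining marker Siglech at 0, 0 and 0.767 CPM. The 12 Kupffer cell markers summed to 123 CPM at injury, 25.7 CPM in negative recovery and 294 CPM in positive recovery, and the 12 hepatocyte markers to 276, 179 and 159 CPM. The 12 stellate markers summed to 308, 229 and 2311 CPM, the 10 cholangiocyte markers to 142, 55.2 and 27.6 CPM, and the 10 mesothelial markers to 24.1, 7.79 and 91.3 CPM. The 10 vascular endothelial markers summed to 1023, 1369 and 1298 CPM, with Cldn5 at 569, 936 and 906 CPM. The 8 central vein markers summed to 533, 364 and 401 CPM, with Lrg1 at 337, 40.7 and 19.2 CPM and Wnt2 at 165, 278 and 342 CPM. Both lists include gating genes. The 6 lymphatic markers summed to 23.7, 20.7 and 105 CPM. T and NK cell markers summed to 0.0865, 0.0594 and 17.6 CPM, B cell markers to 1.64, 4.40 and 18.4 CPM, neutrophil markers to 0.519, 0.297 and 3.84 CPM, and platelet and erythroid markers to 55.5, 18.7 and 24.6 CPM. The part of these in the results below was not tested, apart from the levels given beside single genes.

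At injury, Selp-negative sinusoidal cells had higher levels of most antiviral and GTPase genes of the interferon response, of the T cell attractants Cxcl9 and Cxcl10 and of the adhesion molecules Vcam1, Icam1 and Sele. Most receptors and transcription factors of sinusoidal identity lay within 2-fold of recovery, as did most genes of any kind. Differences are log2 ratios of CPM values with 10 CPM added to each, and a gene was counted as higher or lower when the ratio was 2-fold or more. Among 8290 genes with a mean of at least 10 CPM over both libraries, 221 (2.67%) were higher at injury, 54 (0.651%) were lower and 8015 lay within 2-fold. The median log2 ratio over these genes was -0.17. Scaling the totals with TMM factors moved that median to -0.03 and moved each list by a like amount, so list medians below are read against it. Because the filter used the mean of both libraries, a low gene could pass through the library in which it was high.

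**Figure D1:**
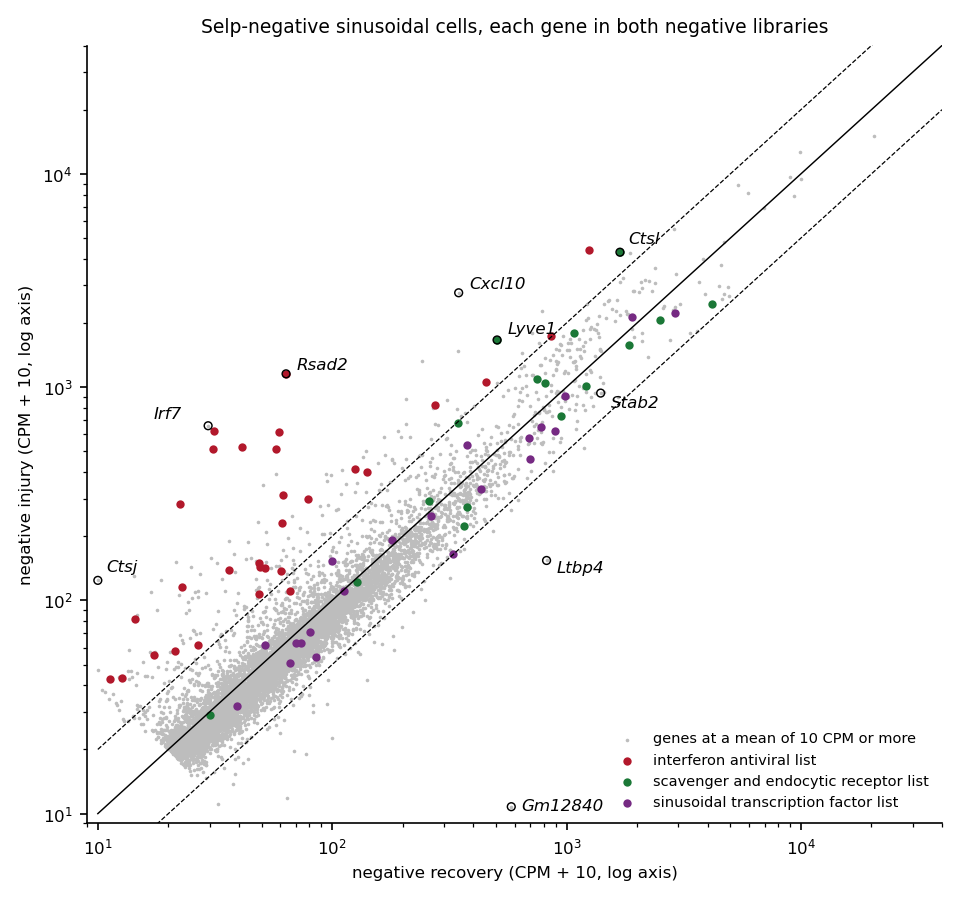
Level of each of the 8290 tested genes in Selp-negative sinusoidal cells, injury on the y axis and negative recovery on the x axis, in CPM with 10 added on log scales. Each point is a gene and the dashed lines mark a 2-fold difference. Irf7, Rsad2 and Cxcl10 lie far above the upper line, and Gm12840 and Ltbp4 far below the lower one.

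Of the antiviral effectors, 35 genes were listed, 34 were among the measured genes and 30 passed the filter. Of these 30, 29 were 2-fold or more higher at injury and none was lower, with a median log2 ratio of 1.79 against -0.17 over all genes. Rsad2, which encodes viperin, an enzyme that makes a chain-terminating nucleotide against viral polymerases (chr12:26442746-26456452, minus strand, coordinates in mm10 from GENCODE M21), stood at 1145 (1125 to 1164) CPM at injury, 53.6 (50.1 to 57.2) CPM in negative recovery and 49.1 (37.8 to 62.7) CPM in positive recovery. The log2 ratio of injury over negative recovery was 4.18 (4.10 to 4.27), a 21.4-fold ratio without the added CPM. Ifit3, of the family of proteins that bind foreign RNA (chr19:34583531-34588731, plus strand), stood at 613 (599 to 628), 21.5 (19.3 to 23.8) and 21.5 (14.3 to 31.1) CPM in the same 3 libraries, a log2 ratio of 4.31. The injury level of both genes lay far above both recovery levels, which overlapped each other within their counting intervals. The related Ifit1 stood at 503 CPM at injury and 20.9 CPM in negative recovery, Ifit2 at 603 and 49.6 CPM, and Ifit3b at 273 and 12.5 CPM. Ifit3 and Ifit3b are near copies, and how reads matching both were assigned is not given in the sources used here.

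Isg15, a ubiquitin-like protein that is joined to other proteins (chr4:156199424-156200818, minus strand), stood at 516 (503 to 529.8) CPM at injury, 31.2 (28.6 to 34.0) CPM in negative recovery and 25.3 (17.4 to 35.6) CPM in positive recovery, a log2 ratio of 3.68. Usp18, the protease that removes it and restrains the type I interferon receptor, had 105, 12.9 and 12.3 CPM (log2 ratio 2.33). Oasl2 and Oasl1, members of the oligoadenylate synthetase family, had log2 ratios of 2.33 and 2.49, Oasl1 at 71.5 CPM at injury and 4.46 CPM in negative recovery. These effector, conjugation and feedback genes were all 2-fold or more higher at injury. Ifitm3, which blocks the fusion of virus with endosomes, was 4386 CPM at injury, 1235 CPM in negative recovery and 1113 CPM in positive recovery (log2 ratio 1.82). Bst2, the tether that holds budding virus at the membrane, was at 1719, 844 and 814 CPM and passed the 2-fold limit narrowly, at 1.02. Zbp1, a sensor of Z-form nucleic acid, had 33.0 CPM at injury and 2.67 CPM in negative recovery. Ifi27l2a had 32.6, 1.25 and 52.2 CPM, so its level in positive recovery was above that at injury. Ifi35, at 100.5 CPM at injury and 56.2 CPM in negative recovery, was the member within 2-fold (log2 ratio 0.74). The members below the filter were Mx1 at 7.87 CPM at injury and 0 in negative recovery, Oas2 at 7.0 and 0.416 CPM, Oas3 at 1.12 and 0 CPM and Slfn8 at 6.4 and 2.20 CPM.

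Of the interferon genes, 4 were examined: Ifnb1, Ifna4, Ifng and Ifnl2 had 0 counts in the members of all 3 libraries, which allows up to 0.259 CPM each at injury (3 counts). Of 24 ligand, receptor and signalling genes 18 passed the filter, 5 were higher at injury and none was lower, with a median log2 ratio of 0.35. The type I receptor chains stood at 41.3 CPM at injury and 49.3 CPM in negative recovery for Ifnar1, and at 121 and 137 CPM for Ifnar2. The type II receptor chains Ifngr1 and Ifngr2 stood at 57.0 and 67.6 CPM at injury and 76.3 and 81.7 CPM in negative recovery. All 4 receptor chains and the kinases Jak1, Jak2 and Tyk2 lay within 2-fold. The genes that were higher act downstream of the receptors or limit them. Irf7, the transcription factor that amplifies the type I response (chr7:141262706-141266481, minus strand), stood at 649 (635 to 664) CPM at injury, 19.6 (17.5 to 21.8) CPM in negative recovery and 20.7 (13.7 to 30.1) CPM in positive recovery. Its log2 ratio of 4.48 (4.37 to 4.59) was the highest of the 8290 genes with 10 CPM added, and with 1 CPM added it was 4.98, below the 6.85 of Ctsj. Irf1, an interferon-induced transcription factor, had 651 CPM at injury and 272 CPM in negative recovery, and Irf8 had 431 and 147 CPM. Socs1, which inhibits the JAK kinases, had 269 CPM at injury, 78.9 CPM in negative recovery and 76.0 CPM in positive recovery (log2 ratio 1.65). Stat2 and Irf9, whose proteins bind together at the ISRE, had log2 ratios of 0.92 and 0.77, under the 2-fold limit.

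Sensors of foreign and misplaced nucleic acid were higher at injury in part. Of 20 sensing genes 17 passed the filter, 8 were higher and none was lower (median log2 ratio 0.89). Ifih1, which encodes the sensor of long double-stranded RNA MDA5, had 139.5 (133 to 147) CPM at injury, 37.9 (35.0 to 41.0) CPM in negative recovery and 46.8 (35.8 to 60.1) CPM in positive recovery. Ddx58, which encodes RIG-I, had 144 CPM at injury and 58.3 CPM in negative recovery, and Dhx58, its relative LGP2, 38.6 and 8.02 CPM. Mb21d1, which encodes the DNA sensor cGAS, had 62.4 (58.0 to 67.1), 15.5 (13.7 to 17.5) and 19.2 (12.4 to 28.3) CPM. These 4 cytosolic sensors were above the 2-fold limit. Mavs, the adaptor of the RNA sensors, had 14.4 CPM at injury and 26.1 CPM in negative recovery (log2 ratio -0.57), and Tmem173, which encodes STING, 73.7 and 54.7 CPM (0.37). Myd88, the adaptor of most Toll-like receptors, was above the limit at 81.4 and 32.2 CPM. The PYHIN genes Ifi207, Ifi204 and Ifi203 had log2 ratios of 1.81, 1.45 and 1.22, and these neighbouring copies share sequence. Tlr3 had 70.9 CPM at injury and 33.5 CPM in negative recovery (log2 ratio 0.89), Tlr4 18.3 and 22.7 CPM, and Tlr7 and Tlr9 were at or near 0.

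The guanylate-binding proteins and immunity-related GTPases, which attack the membranes around intracellular microbes and are known as targets of type II interferon, were nearly all higher. Of 18 genes 16 passed the filter and 14 were 2-fold or more higher at injury (median log2 ratio 1.76). Iigp1 stood at 1317 (1296 to 1338) CPM at injury, 232 (225 to 239.7) CPM in negative recovery and 234 (209 to 262) CPM in positive recovery, a log2 ratio of 2.45. Gbp5 stood at 88.5 (83.2 to 94.1), 14.3 (12.5 to 16.2) and 13.0 (7.60 to 20.9) CPM, and Gbp6 at 48.5 (44.6 to 52.7), 3.63 (2.77 to 4.66) and 1.53 (0.186 to 5.54) CPM. In each of these 3 genes the injury level was several times that of either recovery library. Ifi47 had 224 CPM at injury and 38.1 CPM in negative recovery, Irgm1 354 and 84.8 CPM, and Igtp 98.1 and 19 CPM. Ifi44, an interferon-induced GTPase-like protein that also stood in the antiviral list, had 504 CPM at injury, 47.5 CPM in negative recovery and 34.5 CPM in positive recovery. Gbp9 and Gvin1 were within 2-fold at log2 ratios of 0.88 and 0.99, and Gbp8 and Gbp10 were at or under 1.04 CPM in both negative libraries. Several of these genes are near copies of one another, so the split of reads between them is uncertain.

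Antigen presentation was higher for some class I genes and lower for H2-T23. Of 21 class I and peptide loading genes, all of which passed the filter, 2 were higher and 1 was lower (median log2 ratio 0.18). The classical class I gene H2-D1 had 4265 (4228 to 4303) CPM at injury, 1852 (1832 to 1873) CPM in negative recovery and 1687 (1617 to 1759) CPM in positive recovery, and the peptide transporter Tap1 had 123, 54.1 and 43.7 CPM. H2-K1 and B2m were within 2-fold at log2 ratios of 0.76 and 0.60. H2-T23, which encodes the non-classical molecule Qa-1, had 254 (245 to 263) CPM at injury, 570.2 (559 to 582) CPM in negative recovery and 449.7 (414 to 488) CPM in positive recovery, a log2 ratio of -1.14. H2-Q7 and H2-T22 also had negative ratios, of -0.76 and -0.69, within the limit. Class I genes are close copies that vary between mouse strains, so reads may be split between them. Class II genes stayed at background, none over 6.05 CPM (Cd74) at injury or 4.52 CPM in negative recovery, and the costimulators Cd80 and Cd86 were at or under 0.178 CPM. The checkpoint ligand Cd274, which encodes PD-L1, had 133 (127 to 140.0) CPM at injury, 15.1 (13.3 to 17.1) CPM in negative recovery and 15.3 (9.37 to 23.7) CPM in positive recovery, a log2 ratio of 2.51 (2.39 to 2.64). Lgals9, which encodes galectin-9, had 445, 169 and 140.4 CPM. Cd274 and Lgals9 were the 2 of 14 class II, costimulation and checkpoint genes that passed the filter, and both were above the 2-fold limit.

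Among 22 chemokines and cytokines 21 were measured, 12 passed the filter, 5 were higher at injury and none was lower (median log2 ratio 0.63). Against positive recovery the median was 0.21, over the genes that passed the filter with that library, which need not be the same. Cxcl10, a ligand of the receptor CXCR3 on activated T cells (chr5:92346638-92348889, minus strand), stood at 2759.9 (2729.8 to 2790.4) CPM at injury, 336 (328 to 345) CPM in negative recovery and 312 (282 to 343) CPM in positive recovery, a log2 ratio of 3.0. Cxcl9, another CXCR3 ligand (chr5:92321347-92328079, minus strand), stood at 869 (852 to 886), 197 (191 to 204) and 144 (124 to 166) CPM, a log2 ratio of 2.08 (2.03 to 2.14). Both were lower, but also counted, in both recovery libraries. The neutrophil attractants Cxcl1 and Cxcl2 had 98.8 and 115 CPM at injury, 29.6 and 8.62 CPM in negative recovery and 39.9 and 10.7 CPM in positive recovery. The monocyte attractant Ccl2 had 80.2 (75.2 to 85.6) CPM at injury, 7.91 (6.62 to 9.37) CPM in negative recovery and 75.2 (61.1 to 91.6) CPM in positive recovery, so its level in the positive recovery library did not differ from that at injury beyond counting error. Cxcl16 was 233 CPM at injury and 253 CPM in negative recovery, and Il1a 271 and 143 CPM (log2 ratio 0.88). Il6 and Il1b were at or under 0.432 CPM at injury.

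Adhesion molecules on which leukocytes slow and arrest were higher, while general endothelial adhesion genes were not. Of 16 genes 13 passed the filter and 3 were higher at injury (median log2 ratio -0.03). Vcam1, the ligand of the integrin VLA-4, had 613 (599 to 627) CPM at injury, 181 (175 to 187) CPM in negative recovery and 143 (123 to 165) CPM in positive recovery. Icam1, the ligand of LFA-1, had 573 (559 to 587), 187 (180.1 to 193) and 153 (133 to 176) CPM, and E-selectin, Sele, had 47.4 (43.5 to 51.5), 6.66 (5.48 to 8.01) and 3.07 (0.836 to 7.86) CPM. These genes had log2 ratios of 1.71, 1.57 and 1.78. Pecam1 was at 685 CPM at injury and 702 CPM in negative recovery, and Icam2 at 214 and 264 CPM. Vcam1 and Icam1 also stood among 18 NF-kB response genes, of which 15 passed the filter and 4 were higher (median log2 ratio 0.42). The others were Tnfaip3, which encodes the NF-kB inhibitor A20, at 381 (370.1 to 393) CPM at injury, 47.7 (44.4 to 51.1) CPM in negative recovery and 36.8 (27.2 to 48.8) CPM in positive recovery, and Nfkbiz at 864, 299.8 and 246 CPM. Nfkbia, which encodes the inhibitor IkB-alpha, was within 2-fold at a log2 ratio of 0.86. The NF-kB subunit genes Nfkb1, Rela and Relb had ratios of -0.11, -0.01 and 0.19.

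The endocytic apparatus, by which these cells clear blood, was largely within 2-fold of recovery, as were 8015 of all 8290 genes. Of 20 scavenger and endocytic genes 16 passed the filter, 2 were higher at injury and none was lower. The median log2 ratio was -0.05 with totals as scaling and 0.092 with TMM factors. Lyve1, a hyaluronan receptor (chr7:110850607-110863239, minus strand), had 1654 (1631 to 1678) CPM at injury, 495 (485 to 506) CPM in negative recovery and 486 (449 to 525) CPM in positive recovery, a log2 ratio of 1.72 (1.68 to 1.76). The lysosomal protease Ctsl had 4284 (4246 to 4321), 1679.8 (1660.3 to 1699.5) and 1672 (1603 to 1744) CPM, a ratio of 1.35. Both injury levels exceeded both recovery levels well beyond the counting intervals. The mannose receptor Mrc1 had 1564 CPM at injury and 1829 CPM in negative recovery, and Clec1b, the receptor of podoplanin, was just under the limit at 670.0 and 333 CPM (0.99). Ehd3, a regulator of endocytic recycling, had 2435 CPM at injury, 4149.6 CPM in negative recovery and 3851 CPM in positive recovery (log2 ratio -0.77). The gate bounds the sum of its sinusoidal genes from below. In the same 3 libraries Clec4g was at 3094, 3655 and 3383 CPM and Stab2 at 928, 1388 and 1184 CPM. Dnase1l3 was at 1794, 3340 and 3389 CPM and Ptprb at 2658, 4932 and 4241 CPM, both with a log2 ratio of -0.89. Gpr182 and Kdr had ratios of -0.35 and -0.32.

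None of 21 sinusoidal transcription factors that passed the filter, of 22 listed, was 2-fold higher or lower (median log2 ratio -0.24, and -0.07 with TMM factors). Of all 8290 genes 8015 also lay within 2-fold, so such a count alone does not set a list apart. Gata4, which in mouse is needed for the sinusoidal fate, had 238 (229 to 247) CPM at injury, 254 (246 to 261) CPM in negative recovery and 229 (203 to 256) CPM in positive recovery. Maf had 2222, 2885 and 2796 CPM and the flow-responsive Klf2 2119, 1884 and 1875 CPM. The lowest ratio was that of Sox18, at 154 CPM at injury and 318 CPM in negative recovery (-0.99), and the highest that of Sox7 (0.61). All 22 vascular receptor and junction genes passed the filter and lay within 2-fold (median -0.27, and -0.09 with TMM factors), from Nrp1, a co-receptor of VEGF, at 889 CPM at injury and 1642 CPM in negative recovery (-0.88), to S1pr1, a receptor of sphingosine-1-phosphate (0.35). The endothelial cadherin Cdh5 was at 795 CPM at injury and 936 CPM in negative recovery. Angiocrine genes, the signals that endothelium sends to neighbouring cells, were near recovery levels in 16 of 17 that passed the filter (median 0.01). The exception was Inhbb, a subunit of activin B, at 239 (230.5 to 248) CPM at injury, 57.2 (53.6 to 60.9) CPM in negative recovery and 36.8 (27.2 to 48.8) CPM in positive recovery (log2 ratio 1.89). Bmp2, which in mouse sinusoidal endothelium signals to hepatocytes for iron balance, was 1873, 1898 and 2047 CPM, and Wnt2 was 165, 278 and 342 CPM (-0.72).

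Capillarization, the loss of pores with a gain of basement membrane known from fibrotic liver, was read from 21 genes, of which 15 passed the filter and 2 were higher (median log2 ratio -0.01). These were Esm1, a tip-cell proteoglycan, at 135 (128 to 142) CPM at injury, 47.7 (44.4 to 51.1) CPM in negative recovery and 40.7 (30.5 to 53.2) CPM in positive recovery, and Ly6a, which encodes Sca-1, at 1789.6 (1765 to 1814), 705 (692 to 718) and 326 (296 to 359) CPM. Ly6a also differed between both recovery libraries. Plvap, of the diaphragms that close endothelial pores, was 148 CPM at injury and 156 CPM in negative recovery, Cd34 50.8 and 44.1 CPM, and the basement membrane collagen Col4a1 751 and 756 CPM. None of the 7 of 18 mesenchymal transition genes that passed the filter was 2-fold higher or lower. Of 19 genes of vascular tone and coagulation 12 passed the filter and 4 were higher (median 0.38). Ednrb, the endothelin receptor B (chr14:103814625-103844402, minus strand), had 400.5 (389 to 412) CPM at injury, 100.3 (95.6 to 105) CPM in negative recovery and 76.0 (61.7 to 92.5) CPM in positive recovery, a log2 ratio of 1.90. Ace, the angiotensin-converting enzyme, had 36.6, 3.45 and 1.53 CPM, the urokinase receptor Plaur 47.2, 7.61 and 7.67 CPM, and thrombospondin 1, Thbs1, 24.6, 1.19 and 9.98 CPM. Nos3, the endothelial nitric oxide synthase, was 115 CPM at injury and 100.4 CPM in negative recovery, and the endothelin gene Edn1 16.4 and 24.2 CPM.

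Sinusoidal cells differ along the lobule from the portal tract to the central vein, and the 10 pericentral and 10 periportal genes were used to place cells by the pericentral share of their zonation UMIs, a grouping chosen after values had been seen. Of 2075 injury cells 59 had under 5 zonation UMIs and were left out, as were 32 recovery cells. As lists, 0 of 10 pericentral genes were 2-fold higher or lower (median log2 ratio 0.40), and of 10 periportal genes Clu and Ly6a were higher and Ltbp4 was lower (median 0.10). Since these genes themselves differed between the libraries, the number of cells per bin is not compared, and values of list genes in the bins are partly set by the binning. Ednrb, which is in neither list, had 254, 304, 411, 523 and 639.5 CPM at injury over the bins of 0 to 20%, 20 to 40%, 40 to 60%, 60 to 80% and 80 to 100% pericentral share. In negative recovery it had 129.6, 117, 102, 61.4 and 20.7 CPM over the same bins. Ednrb thus increased over the bins at injury and decreased over them in recovery. Since the binning genes differed between the libraries, a bin may not mark the same position in both. The pericentral list gene Fabp4 had 1540, 1452, 1332, 1360 and 1619 CPM at injury over the bins. In negative recovery it had 968, 903, 864, 965 and 1465 CPM, so it did not rise steadily in either library. Cxcl9 had 1073, 1013, 879, 664 and 468 CPM at injury and 267, 210.2, 197, 130.1 and 108 CPM in negative recovery, decreasing over the bins in both. Rsad2 had 1288, 1185, 1124, 1097 and 969 CPM at injury and 57.9, 48.6, 69.0, 43.0 and 31.7 CPM in negative recovery, so its injury level was high in every bin. Ltbp4, a list gene, was lower at injury in each bin, at 264, 194, 116, 80.3 and 69.1 CPM at injury and 1123, 923, 748, 514 and 338 CPM in negative recovery. Ly6a, also a list gene, had 1721, 1751, 1842, 1800.2 and 1896 CPM at injury and 953, 865, 644, 429 and 122 CPM in negative recovery: the injury levels were nearly level over the bins, and the recovery levels were not. The first and last bins held 291 and 101 injury cells and 415 and 106 recovery cells.

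**Figure D2:**
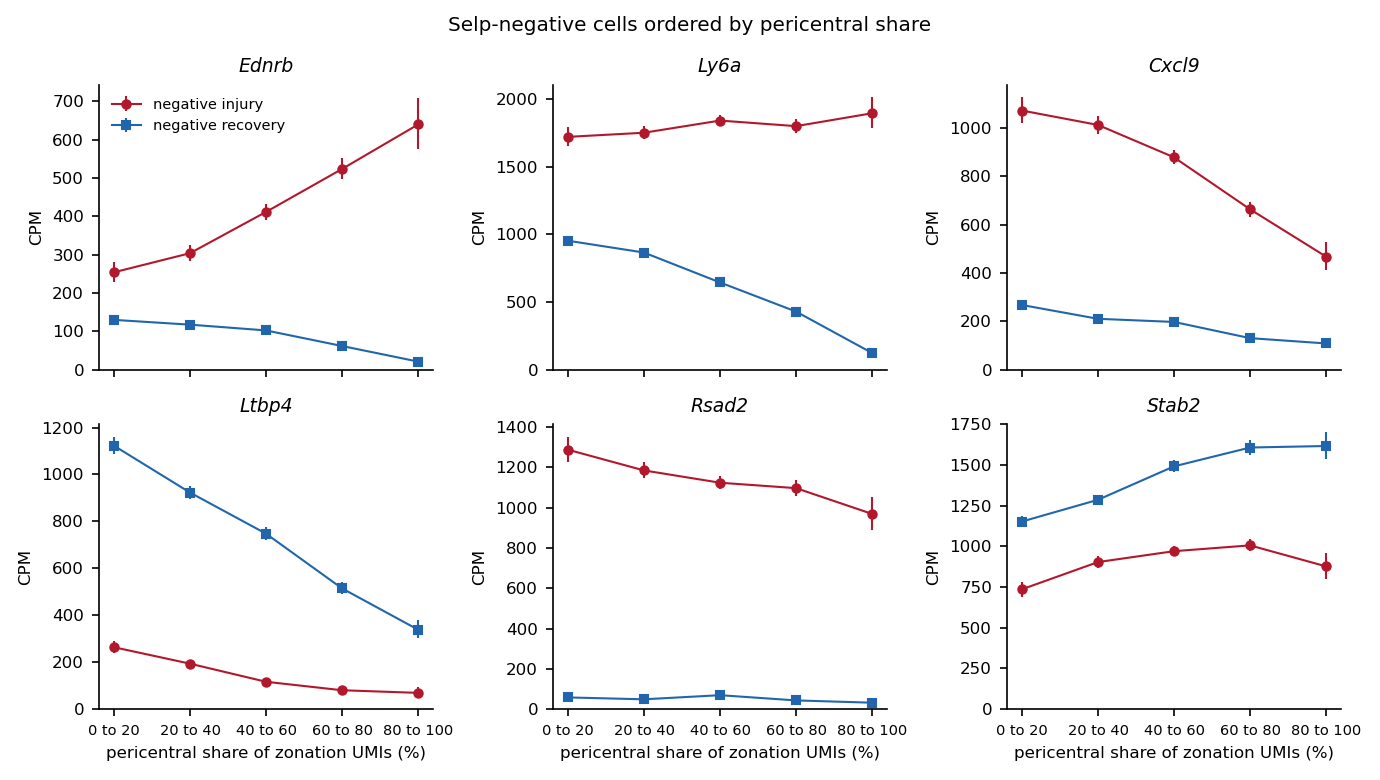
Levels in CPM (y axis, from 0) of Ednrb, Ly6a, Cxcl9, Ltbp4, Rsad2 and Stab2 in Selp-negative sinusoidal cells grouped into 5 bins by the pericentral share of their zonation UMIs (x axis), for the negative injury and negative recovery libraries, with exact Poisson 95% intervals. Ednrb was highest in the 80 to 100% bin at injury, at 640 CPM, and in the 0 to 20% bin in recovery, at 130 CPM.

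Lipid and sterol genes were mixed: of 19 genes 14 passed the filter, 2 were higher and 1 was lower at injury (median log2 ratio -0.02). The cholesterol exporter Abca1 had 179 (171 to 187) CPM at injury, 33.5 (30.8 to 36.4) CPM in negative recovery and 41.4 (31.1 to 54.1) CPM in positive recovery, and Ch25h, which makes 25-hydroxycholesterol, 30.2, 4.58 and 3.07 CPM. Of 17 acute phase and iron genes 10 passed the filter and 5 were higher (median 0.91). Against positive recovery the median was -0.26, over the genes that passed the filter with that library, which need not be the same. Over the 10 genes, positive over negative recovery had a median log2 ratio of 0.10. Lrg1, a secreted leucine-rich glycoprotein, had 337 (326 to 348) CPM at injury, 40.7 (37.7 to 43.8) CPM in negative recovery and 19.2 (12.4 to 28.3) CPM in positive recovery. It was also among the central vein markers. The metallothionein genes Mt1 and Mt2 had 1608 and 471 CPM at injury, 755 and 158 CPM in negative recovery and 733 and 178 CPM in positive recovery. Complement C3 had 80.1, 14.5 and 147 CPM, so its direction depended on the recovery library (log2 ratio 1.88 against negative and -0.80 against positive recovery). Lcn2, Saa3 and Serpina3n were far higher in other cells of the same injury library: Lcn2 was 27.2 CPM in the members and 3827 CPM in bile duct cells, Saa3 14.3 CPM in the members and 4496 CPM in mesothelial cells, and Serpina3n 120.2 CPM in the members and 898 CPM in mesothelial cells. The part of free RNA from those cells was not tested.

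Of 15 cell death and senescence genes that passed the filter, of 19, 2 were higher: Casp4, an inflammatory caspase, at 344 CPM at injury, 118 CPM in negative recovery and 119.7 CPM in positive recovery, and the cell cycle inhibitor Cdkn1a at 429.7 (418 to 442), 173 (167 to 179.9) and 178 (156 to 202) CPM. The cell cycle genes were mostly low. Of 16, 6 passed the filter and Stmn1 was higher, at 38.6 CPM at injury and 12.0 CPM in negative recovery. Mki67, the marker of cycling cells, had 11.1 (9.23 to 13.2) CPM at injury, 0.357 (0.131 to 0.776) CPM in negative recovery and 7.67 (3.68 to 14.1) CPM in positive recovery, and Top2a had 9.51, 0.357 and 6.91 CPM. Both were below the filter.

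Beyond the lists, the 15 genes with the highest ratios at a mean of 50 CPM or more included Irf7, Ifit3, Rsad2, Ifit1, Isg15, Ifit3b, Ifit2, Ifi44, Cxcl10, Cxcl2, Lrg1 and Tnfaip3, described above, and Ctsj, Serpina3n and Ifi206. Ctsj, a cathepsin known in mouse from the placenta (chr13:61000179-61005959, minus strand), had 114 (108 to 120.4) CPM at injury and 0 counts in both recovery libraries. Set against 3 counts in negative recovery, it was at least 640.0-fold higher at injury. Mouse strain is not given in the sources used here, and Ctsj and Gm12840 were also near 0 in other cell classes of 1 condition, so a difference between the animals cannot be told apart from injury. Serpina3n, a serine protease inhibitor, had 120.2 (114 to 127) CPM at injury, 4.28 (3.35 to 5.39) CPM in negative recovery and 3.07 (0.836 to 7.86) CPM in positive recovery, and the PYHIN gene Ifi206 had 141, 11.7 and 10.7 CPM. Of the 15 genes with the lowest ratios, Gm12840, a long non-coding RNA gene (chr4:117700188-117700923, plus strand), had 0.778 (0.356 to 1.48) CPM at injury, 571 (559.6 to 583) CPM in negative recovery and 401 (367 to 436) CPM in positive recovery, a log2 ratio of -5.75. Ltbp4, which binds latent TGF-beta in the matrix (chr7:27305136-27337692, minus strand), had 144 (137 to 151) CPM at injury, 812 (798 to 826) CPM in negative recovery and 572 (532 to 615) CPM in positive recovery, a log2 ratio of -2.42 (-2.49 to -2.35). For both genes the injury level lay below both recovery levels, which themselves differed. The matrix protein Prelp had 12.5 CPM at injury, 89.5 CPM in negative recovery and 236 CPM in positive recovery. The choline phosphodiesterase Enpp6 had 48.6, 173 and 119 CPM, the cyclic nucleotide phosphodiesterase Pde2a 22.7, 84.8 and 60.6 CPM, and the aminopeptidase Enpep 78.2, 211 and 229 CPM. Adgre5, which encodes the adhesion receptor CD97, had 64.9, 188 and 161 CPM, and the aldehyde dehydrogenase Aldh2 201, 478 and 478 CPM. Ifi27 is named for induction by interferon and was lower at injury, at 53.9 (49.7 to 58.3) CPM at injury, 141 (135 to 147) CPM in negative recovery and 148 (128 to 171) CPM in positive recovery. The remaining 6 (Ccdc152, Slc26a10, Gm26802, AC149090.1, Arhgdib and Rcn3) had log2 ratios of -1.73, -1.41, -1.39, -1.32, -1.32 and -1.22.

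The interferon profile was spread over most members rather than held by a few. With every cell thinned to 1000 UMIs, the antiviral list summed to a median of 15 UMIs per cell at injury (5th to 95th percentile 4 to 26, highest 45), 3 in negative recovery (1 to 8, highest 25) and 3 in positive recovery. At injury 3 cells and in negative recovery 78 cells had 0. More than 8 UMIs, the 95th percentile of negative recovery, were held by 1697 of 2075 injury cells, 81.8% (80.1% to 83.4%), by 76 of 2032 negative recovery cells, 3.74% (2.96% to 4.66%), and by 4 of 144 positive recovery cells, 2.78%. The distributions thus shared a range of values while their medians lay apart. At this depth a UMI of Irf7 was found in 43.2% (41.1% to 45.4%) of injury cells and 1.72% (1.20% to 2.39%) of negative recovery cells, of Rsad2 in 54.3% (52.1% to 56.4%) and 4.18% (3.35% to 5.15%), of Cxcl10 in 71.0% (69.0% to 73.0%) and 20.6% (18.8% to 22.4%), and of Cxcl9 in 41.5% (39.4% to 43.6%) and 13.6% (12.2% to 15.2%). At the same depth, a UMI of Clec4g was found in 1.48% of injury bile duct cells, Stab2 in 1.21% and Cxcl9 in 0.649%. Clec4g and Stab2 belong to the sinusoidal sum used in gating, so gating may have lowered their shares in duct cells. The shares of Clec4g and Stab2 therefore do not measure free RNA. Irf7 was found in 42.8% of those duct cells, close to its share in the members, and Rsad2 in 9.55%.

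**Figure D3:**
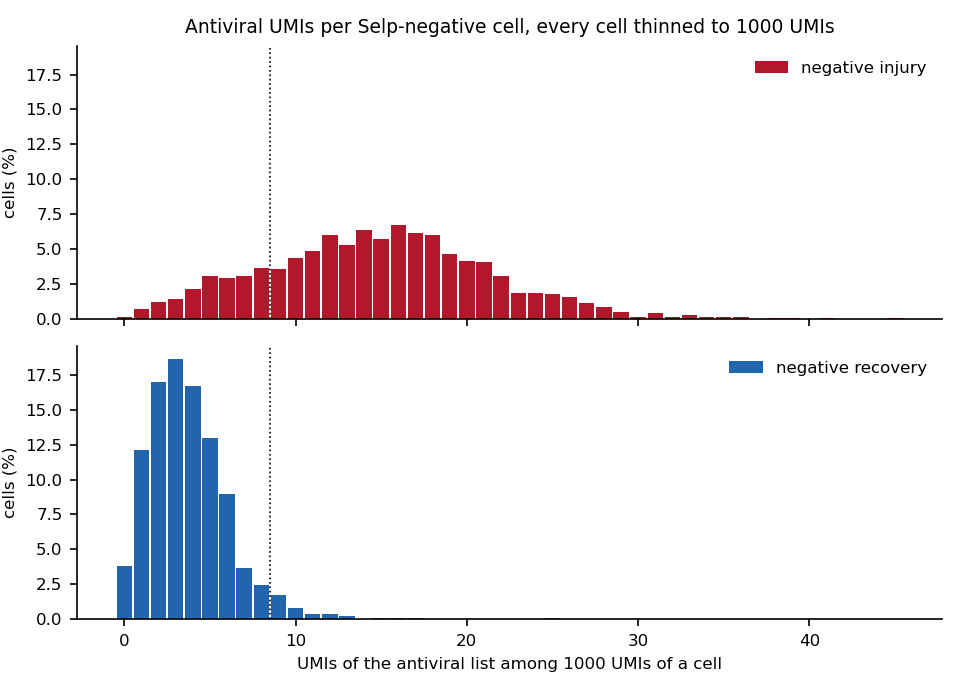
Histogram of the UMIs of the antiviral list per cell after thinning to 1000 UMIs (x axis) as percent of cells (y axis), for 2075 injury cells (upper panel) and 2032 negative recovery cells (lower panel) of the Selp-negative sinusoidal gate. The dotted line lies just above 8 UMIs, and 81.8% of injury cells and 3.74% of recovery cells lie beyond it.

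The variance over the mean of thinned UMIs, which is 1 for pure counting error, was read over the injury cells. It was 3.44 for Cxcl10, 2.49 for Cxcl9, 2.17 for Ctsl, 2.09 for Lyve1 and 1.98 for Rsad2, at means of 2.65, 0.864, 4.23, 1.61 and 1.15 UMIs. It was 1.23 for Irf7, 1.13 for Stab2 and 1.09 for Ifi44, at means of 0.63, 0.893 and 0.474 UMIs. For the same relative spread this ratio rises with the mean, so it does not rank the genes by how much they varied. Over the 2075 injury cells, the 10 genes of 3379 whose thinned UMIs followed Rsad2 most closely were Cxcl10 (Pearson r = 0.28), Ifit2 (0.23), Ifit1 (0.22), Ifit3 (0.21), Vcam1 (0.20), Iigp1 (0.19), Slfn5 (0.18), Gbp4 (0.17), Cxcl9 (0.16) and Nfkbiz (0.16). The 99th percentile of r over all genes was 0.10. Rsad2 followed Irf7 with r = 0.060 and Isg15 with r = 0.12. The 10 genes that followed Cxcl10 most closely included Rsad2, Vcam1 (0.25), Isg15 (0.24) and Irf1 (0.22), and also the dissociation genes Zfp36 (0.25), Junb (0.22), Jund (0.21) and Atf3 (0.20). For Cxcl9 the first 2 were the dissociation genes Egr1 (0.16) and Junb (0.16), before Gbp2 (0.16), Cxcl10 and Rsad2. The part of the digestion response in the chemokine levels was not tested. These cells share 1 library and thinned counts are sparse, so the values are a description.

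The same genes were read in the other gated classes of the 2 negative libraries: Selp-positive sinusoidal cells (1128 at injury, 29 in recovery), cells with Rspo3 and Wnt9b (274 and 106), cells with Vwf, Ly6c1 and Adgrg6 (164 and 105), bile duct cells (1078 and 394) and mesothelial cells (298 and 83). Irf7 was higher at injury in all 6 classes, at 649 CPM at injury and 19.6 CPM in recovery in Selp-negative cells, 747 and 25 CPM in the vascular gate, 609 and 26.4 CPM in duct cells and 486 and 15.5 CPM in mesothelial cells. Isg15 was 516 and 31.2 CPM in Selp-negative cells and 831 and 53.4 CPM in duct cells. Of the antiviral list 29 of 30 genes that passed the filter were higher at injury in Selp-negative cells, 25 of 30 with Rspo3 and Wnt9b, 26 of 30 in the vascular gate, 28 of 31 in duct cells and 21 of 30 in mesothelial cells, where 2.64% of all genes were. The shares over all genes were 3.21% with Rspo3 and Wnt9b, 3.41% in the vascular gate and 2.13% in duct cells. The median log2 ratios of the list ran from 1.49 in mesothelial cells to 1.91 in the vascular gate, with 1.79 in Selp-negative cells. The vascular gate set no limit on sinusoidal genes. In it Stab2 had a log2 ratio of 1.36, Clec4g one of 0.73 and the scavenger list a median of 0.82. Whether the cell make-up of that gate differed between the libraries was not tested. No count is given for Selp-positive cells, which numbered 29 in recovery. Their list median was 1.52, against -0.15 over all genes.

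Injury levels of some genes differed between the classes. Rsad2 at injury was 1145 (1125 to 1164) CPM in Selp-negative cells, 991 (969 to 1013) CPM in Selp-positive cells, 855 (816 to 895) CPM with Rspo3 and Wnt9b, 671 (625 to 720.2) CPM in the vascular gate, 131 (126 to 137) CPM in duct cells and 54.6 (48.8 to 60.8) CPM in mesothelial cells. No interval of these 6 overlapped its neighbour. Cxcl9 at injury was 869 (852 to 886) CPM in Selp-negative cells, 794 (774 to 814) CPM in Selp-positive cells, 410.4 (384 to 439) CPM with Rspo3 and Wnt9b, 325 (293 to 359) CPM in the vascular gate, 8.78 (7.43 to 10.3) CPM in duct cells and 2.19 (1.17 to 3.74) CPM in mesothelial cells. Cxcl10 was highest in Selp-positive cells at 3171 CPM, with 2815 CPM with Rspo3 and Wnt9b and 2759.9 CPM in Selp-negative cells, and 84.5 CPM in duct cells. The levels with Rspo3 and Wnt9b and in Selp-negative cells had overlapping intervals. Lyve1 was 1654 CPM at injury and 495 CPM in recovery in Selp-negative cells, and 1100.4 and 49.1 CPM with Rspo3 and Wnt9b. Ltbp4 was 2-fold or more lower at injury in 5 of the 6 classes and within 2-fold in the vascular gate (log2 ratio -0.81), with 266 CPM at injury and 1036 CPM in recovery in mesothelial cells and 4.74 and 30.4 CPM in duct cells. Over all genes, 1.85% were 2-fold or more lower at injury with Rspo3 and Wnt9b, 2.14% in the vascular gate, 0.842% in duct cells and 2.41% in mesothelial cells. Cells of a class come from 1 library, and no test between classes was made.

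**Figure D4:**
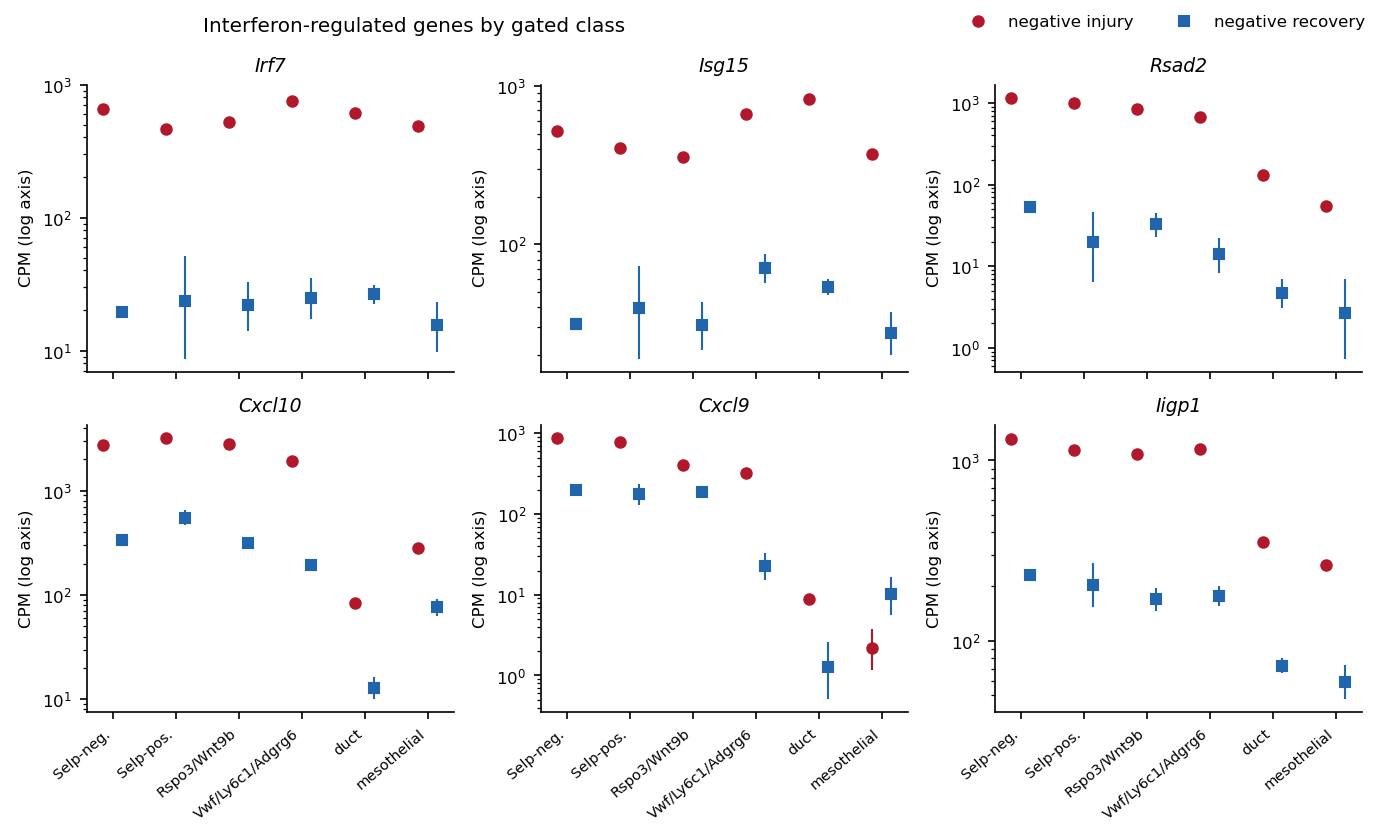
Levels of Irf7, Isg15, Rsad2, Cxcl10, Cxcl9 and Iigp1 in CPM on a log scale in 6 gated classes of cells (x axis), negative injury left of negative recovery in each class, with exact Poisson 95% intervals. At injury Irf7 lies between 460 and 747 CPM in all classes, and Rsad2 and Cxcl9 are highest in the endothelial classes.

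Selp-negative and Selp-positive cells of the injury library differed in few genes. Selp chose these groups, so their difference is a description. Of 8081 genes 1 was 2-fold or more higher in Selp-negative cells (0.0124%) and 11 were lower (0.136%). The 11 include Selp itself, which the gate fixed at 0 CPM in Selp-negative cells, against 557 CPM in Selp-positive cells. None of the 30 antiviral genes was past the limit on either side (median log2 ratio 0.29). The gene above the limit was C3, at 80.1 (75.1 to 85.5) CPM in Selp-negative cells and 29.4 (25.8 to 33.5) CPM in Selp-positive cells. Esm1 had 135 and 72.1 CPM, the scavenger receptor Msr1 284 and 169 CPM, Ly6a 1789.6 and 1232 CPM and the PYHIN gene Ifi213 99.3 and 63.5 CPM. On the other side, Ch25h had 30.2 (27.1 to 33.5) CPM in Selp-negative cells and 94.8 (88.1 to 102) CPM in Selp-positive cells, the potassium channel gene Kcnj8 52.9 and 131 CPM, Ccl2 80.2 and 191 CPM, Inhbb 239 and 467 CPM and the pericentral gene Cdh13 55.2 and 116 CPM. The 10 pericentral genes had a median log2 ratio of -0.30 and the 10 periportal genes one of 0.33, against 0.01 over all genes. Selp-positive cells had more UMIs per cell, with a median of 6763 against 5442 in Selp-negative cells.

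Both recovery libraries gave like profiles for most lists. Of 8471 genes 88 were 2-fold or more higher in positive recovery than in negative recovery (1.04%) and 6 were lower (0.0708%). The antiviral list had a median log2 ratio of -0.11 between them, with Ifi27l2a as the gene above the limit. With positive recovery in place of negative recovery, the antiviral median at injury was 1.97 in place of 1.79 and the GTPase median 1.47 in place of 1.76. The filter was then taken over injury and positive recovery, so the genes behind each list median may differ. The pericentral median was then 0.10 in place of 0.40, the periportal 0.53 in place of 0.10, that of tone and coagulation 0.59 in place of 0.38 and that of NF-kB response genes 0.64 in place of 0.42. The positive recovery members were 144 cells, with the higher stellate and mesothelial marker sums given above.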

How the data were processed

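Single-cell libraries were made from mouse liver non-parenchymal cells with the 10x Genomics 3' v2 protocol, after Pronase (14 mg) and Collagenase (3.7 U) digestion for each animal and a Nycodenz gradient, per the labels' protocols. Per the file headers, the deposited matrices hold UMI counts per gene and barcode and came from software version 3.1.0. The builds mm10 and GRCh38 and featureCounts 1.6.2 stand in the submitters' processing notes, and the aligner is not given in the sources used here. Counts of the positive injury library were not analysed here.

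Library totals were 49993127 UMIs (negative injury), 27816768 (negative recovery) and 33442403 (positive recovery). Counts were summed over gated cells and scaled to CPM, and log2 ratios were taken with 10 CPM added for genes with a mean of at least 10 CPM. A 2-fold ratio was the limit for counting a gene. Fold bounds used 3 counts. No doublet caller was run: the gates leave out cells with other types' genes, and leaving out the 5% of cells with most UMIs was an alternative. No gene model with replicates could be fitted with 1 library per group. The steps were tested on simulated data.

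Members, 23 gene lists and limits were chosen with earlier results of these data known. Named genes are list members, the 15 highest and 15 lowest ratios at a mean of 50 CPM or more without gating, mitochondrial and ribosomal protein genes, the 10 highest and 10 lowest of Selp-negative over Selp-positive cells, and the 10 genes most correlated with Rsad2. Values of some list genes that are counted in the list totals are not reported here. Zonation bins were chosen after values had been seen. Coordinates are from GENCODE M21 and promoter sequences from RefSeq, searched for the ISRE core and kappa B motifs and for GAS on both strands. Software was Python 3.11.15, numpy 2.4.6, scipy 1.17.1, pandas 2.3.3, matplotlib 3.10.9, R 4.3.3 and edgeR 4.0.16, which gave TMM factors on the summed counts.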

Additional observations from a re-analysis of the deposited data

Results flagged for a closer look

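Cdkn1a, the cell cycle inhibitor p21, went in opposite directions in 2 cell classes under the same contrast. In Selp-negative sinusoidal cells its log2 ratio of injury over negative recovery was 1.26, with 429.7 (418 to 442) CPM at injury and 173 (167 to 179.9) CPM in negative recovery. In mesothelial cells of the same libraries, 298 at injury and 83 in recovery, the log2 ratio was -1.20. Over all genes, 2.41% were 2-fold or more lower at injury in mesothelial cells, and 2.67% were higher in Selp-negative cells. The difference between the classes was not tested, since each value comes from 1 library per condition.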

How the results depend on the processing

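No paired analysis was possible because each group is 1 library and the results come from no test. TMM scaling gave 33 lower genes in place of 54, an antiviral median of 1.95 in place of 1.79 and a scavenger median of 0.092 in place of -0.05. Adding 1 CPM gave 128 lower genes and an antiviral median of 2.07, and adding 50 CPM gave 108 higher genes in place of 221, 15 lower genes and a median of 1.26. The scavenger median was -0.015 without the filter on low genes and -0.17 with all gated sinusoidal cells, and a mean of 50 CPM or more left 28 lower genes. Positive recovery as comparison gave 158 lower genes, an antiviral median of 1.97 and a scavenger median of -0.14. The filter was taken with that library and passed 8378 genes. The signs of C3 (-0.80) and Ifi27l2a (-0.55) turned in that comparison. The Selp-negative share at injury, 64.8%, was 62.6% with a higher minimum of UMIs per cell, 66.9% at a sinusoidal sum of 60 or more and 60.9% without the Rspo3 and Wnt9b step (95.6% in negative recovery). It was 85.9% after thinning (99.7% in negative recovery) and 67.5% without cells holding a Kupffer marker UMI, an alternative chosen after seeing the data. The cause of these shifts was not tested, except that the alternatives with fewer genes or cells change them by construction. Of 113 named or list genes past the 2-fold limit, 81 kept it with 50 CPM added, 103 against positive recovery and 107 or more under each of the other alternatives. Medians of adhesion (0.15), capillarization (0.17), mesenchymal (0.10), lipid (0.13) and proliferation (0.0037) genes turned positive with TMM scaling. Genes of a few CPM rest on few counts, and a UMI missing at these depths does not show that a gene is silent.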

Other observations

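A few genes were near 0 in every gated class of one condition, a pattern noticed after values had been seen. Gm12840 had 0.778 CPM at injury and 571 CPM in negative recovery in Selp-negative cells, 1.73 and 1188 CPM in the vascular gate and 5.56 and 2569.6 CPM in mesothelial cells. Rnaset2b, a ribonuclease gene with a close copy in mouse, had 1.82 CPM at injury and 54.3 CPM in negative recovery in Selp-negative cells, and 4.51 and 100.5 CPM in duct cells. The opposite held for Gm10260, with 37.0 CPM at injury and 0 counts in negative recovery in Selp-negative cells, and 72.2 and 0.182 CPM in duct cells. Gm10093 had 28.2 CPM at injury and 0.416 CPM in negative recovery in Selp-negative cells. Ctsj had 0 counts in all 6 classes of the negative recovery library and 114 CPM at injury in Selp-negative cells, 107 CPM in Selp-positive cells, 47.2 CPM with Rspo3 and Wnt9b, 17.3 CPM in the vascular gate and 0.703 CPM in duct cells. In Selp-negative cells of the positive recovery library Gm12840 had 401 CPM, Rnaset2b 59.9 CPM, Gm10260 0 CPM, Gm10093 0 CPM and Ctsj 0 counts, on the side of negative recovery. The sources used here give no mouse strain, so a difference between the animals cannot be told apart from injury.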
